A study of Mus musculus with 23 samples.

Results

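CCAAT/enhancer-binding proteins (C/EBP) are transcription factors, and the genes Cebpa, Cebpb, Cebpd and Cebpg for 4 of them were followed through quadriceps muscle and epididymal fat of mice with pancreatic tumors. The 4 genes were taken by symbol from the count tables, which hold 12831 genes for muscle and 16962 for fat, and all 4 were present in both. They were chosen by their measured expression in quadriceps, where Cebpa was lower and Cebpb and Cebpd were higher in KPC than in no tumor mice, so the muscle values that involve KPC libraries are given as a description, without a test. The hosts were male C57BL/6J mice (C57BL/6 in the labels), 8 weeks old, that received a sham operation (no tumor), KPC cells or KPC IL6KO cells in the pancreas. KPC is a line from the pancreatic tumor of a genetically engineered mouse carrying Pdx1-Cre, and the KPC cells used here are a clone that went through transfection without a guide RNA. KPC IL6KO is a single clone of that line in which CRISPR/Cas9 left an insertion in Il6, while the Il6 gene of the host mice was intact, so host cells of every group could still make IL-6. Each library is 1 mouse, with 3 no tumor, 4 KPC and 4 KPC IL6KO mice for muscle and 4 of each group for fat, 23 libraries in all. Muscle and fat libraries carry different numbers in their labels and were taken to come from different mice.

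C/EBP proteins bind DNA as dimers through a basic region followed by a leucine zipper, and members pair with each other and with related factors such as ATF4. C/EBPβ and C/EBPδ are induced early by cytokines, glucocorticoids and adipogenic signals, and IL-6 acts on Cebpd through STAT3. C/EBPα is made late in fat cell differentiation together with PPARγ and holds the mature fat cell state, whereas C/EBPγ has no activation domain of its own and works through its partners.

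Counts in a library summed to between 19259763 and 74907810 in muscle and between 26306377 and 56308545 in fat. A level of 3 counts, taken as the limit of detection and covering counting error only, corresponded to at most 0.154 CPM (counts scaled to the library size by the TMM method), and every member was above it in every library. The 8 myofiber markers (Acta1, Ckm and others) were all detected in muscle and summed to 155900 to 192745 CPM in no tumor, 124113 to 142960 in KPC and 178198 to 193667 in KPC IL6KO. In fat, the 8 adipocyte markers were all detected and ranged from 1717 to 28527 CPM in no tumor, from 2486 to 11521 in KPC and from 4833 to 18370 in KPC IL6KO. The fat libraries also held RNA of the epididymis, the duct beside this fat pad. Its 20 markers, led by Gpx5, summed to 15346 to 108554 CPM in no tumor, 45905 to 75707 in KPC and 5132 to 106367 in KPC IL6KO, and Gpx5 was above 1000 CPM in 2 no tumor, 4 KPC and 1 KPC IL6KO library.

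The members are close relatives, so the stretches of coding sequence that encode their basic regions are shown to let their likeness be seen. Each run is 90 bases from GRCm38, and capitals mark the 42 positions identical in all 4 genes.
Cebpa: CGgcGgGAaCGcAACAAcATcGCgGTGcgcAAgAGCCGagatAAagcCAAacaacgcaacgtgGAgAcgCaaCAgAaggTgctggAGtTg
Cebpb: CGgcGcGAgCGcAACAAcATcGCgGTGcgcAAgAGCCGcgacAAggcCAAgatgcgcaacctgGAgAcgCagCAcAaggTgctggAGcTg
Cebpd: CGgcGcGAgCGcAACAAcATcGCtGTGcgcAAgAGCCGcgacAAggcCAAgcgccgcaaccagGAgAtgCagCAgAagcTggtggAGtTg
Cebpg: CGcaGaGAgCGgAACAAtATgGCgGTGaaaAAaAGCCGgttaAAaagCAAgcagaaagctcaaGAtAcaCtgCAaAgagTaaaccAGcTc
Cebpb was identical to Cebpd at 88.9% and to Cebpa at 85.6% of these positions, whereas Cebpg matched the other members at 53.3% to 56.7%. The longest run shared by 2 whole transcripts was 29 bases (Cebpa and Cebpb), shorter than a sequencing read, so reads could be assigned to single members. The counts are per gene and do not separate the longer and shorter proteins that the Cebpa and Cebpb transcripts give through different start codons.

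In GRCm38 Cebpa (ENSMUSG00000034957.10) lies at chr7:35119293-35121928 on the plus strand and Cebpg (ENSMUSG00000056216.9) at chr7:35046422-35056573 on the minus strand, 62719 bases apart. Cebpb (ENSMUSG00000056501.3) lies at chr2:167688915-167690418 and Cebpd (ENSMUSG00000071637.5) at chr16:15887286-15891031, both on the plus strand. The 3′ end of Cebpd overlaps Spidr and Cebpb overlaps a transcript of Tmem189, each on the opposite strand. The strand setting of the counting is not given in the sources used here, and without it reads of such partners cannot be told apart. Spidr was at 1.24 to 7.45 CPM in muscle, and the lowest Cebpd level was 9.92 CPM. In fat Spidr was at 9.21 to 26.02 CPM where Cebpd was at 2.37 to 20.4, and its part in the Cebpd counts of fat was not tested. Tmem189 was at 20.1 to 23.02 CPM in no tumor, 36.9 to 100.2 in KPC and 22.9 to 24.5 in KPC IL6KO muscle, so it moved with Cebpb in KPC, and its part in the Cebpb counts was not tested. In fat, Tmem189 was at 44.3 to 124 CPM where Cebpb was at 2.88 to 16.3, and its part there was not tested either.

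The order of the 4 genes in muscle differed between KPC and the other groups. Per kilobase of exon, no tumor muscle held Cebpb at 21.6 ± 2.74 CPM per kb (SD, n = 3), Cebpa at 18.4 ± 15.6, Cebpd at 8.28 ± 3.31 and Cebpg at 6.82 ± 0.206. Neighbours in that order lay within their spread, and Cebpb stood above Cebpg beyond it. In KPC muscle Cebpd came first at 125 ± 39.7 CPM per kb (SD, n = 4), then Cebpb at 58.3 ± 11.3, Cebpg at 9.72 ± 2.25 and Cebpa last at 3.25 ± 2.05. In KPC IL6KO muscle Cebpb came first at 13.9 ± 3.07 CPM per kb. Cebpg at 7.02 ± 0.521 and Cebpd at 6.90 ± 4.21 lay within their spread. Cebpa had the lowest mean at 3.56 ± 1.19, below Cebpg beyond their spread but within the SD of Cebpd. With the shorter RefSeq length of Cebpd its level in KPC IL6KO muscle was 11.4 CPM per kb and its order with Cebpg (8.37) turned.

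**Figure D1:**
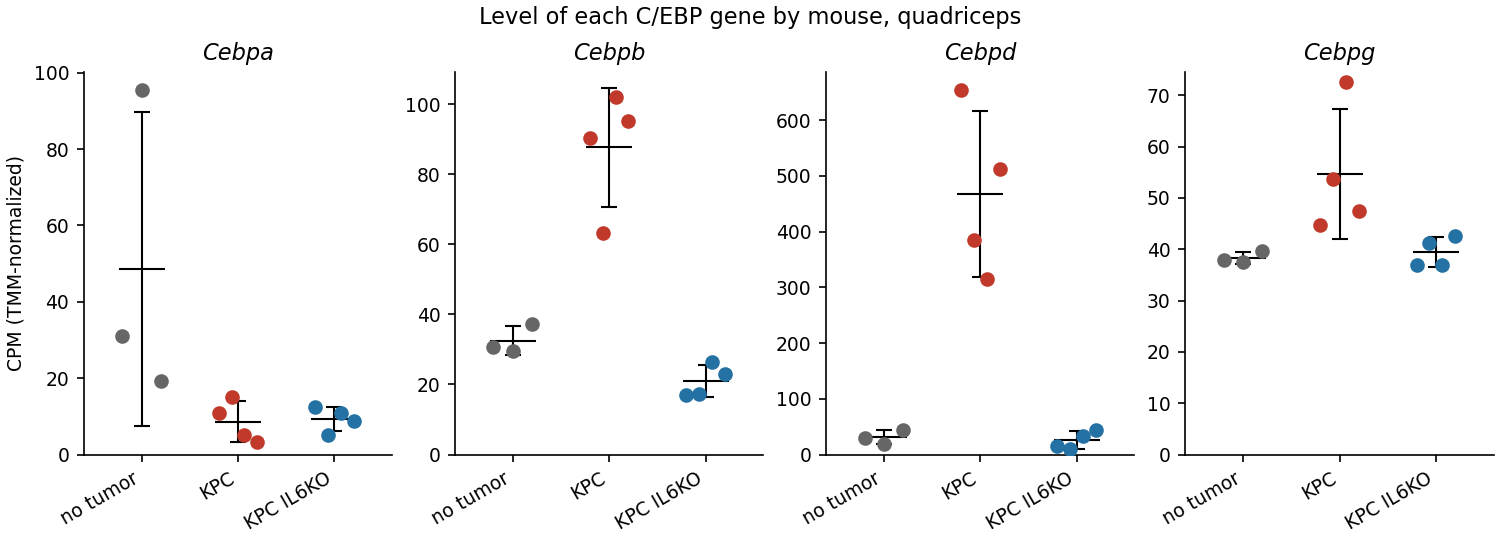
Level of each C/EBP gene in quadriceps, in CPM on a linear axis that differs between panels, with 1 point per mouse, the group mean as a line and the SD as bars (n = 3, 4 and 4). Cebpb and Cebpd are higher in all 4 KPC mice than in any other mouse, whereas Cebpa in both tumor groups is below the 3 no tumor mice.

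Cebpd, the member most directly induced by IL-6 family cytokines, was at 29.1, 19.7 and 44.2 CPM in the 3 no tumor muscles and at 654, 386, 316 and 513 CPM in the 4 KPC muscles. Every KPC value was several times the highest no tumor value, and the groups did not overlap. The log2 fold change (FC) was 3.92 ± 0.53 (standard error), a 15.1-fold difference of the fitted levels, which ranked 60 from the highest among the 12831 genes. Cebpb, which cooperates with C/EBPδ at acute phase genes, was at 30.7, 29.6 and 37.2 CPM in no tumor and at 90.4, 63.1, 102.0 and 95.1 CPM in KPC muscle. Its groups did not overlap either, and its log2 FC was 1.43 ± 0.20. Within KPC the mice were not ordered alike, since the mouse with most Cebpd (replicate 1) had less Cebpb than replicates 3 and 4 and the mouse with most Cebpb (replicate 3) had the least Cebpd.

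Macrophages and neutrophils also make these factors. In muscle, 9 of 10 macrophage markers were detected and summed to 121 to 176 CPM in no tumor, 50.6 to 213 in KPC and 127 to 196 in KPC IL6KO, ranges that overlap. Of 12 neutrophil markers 5 were in the table, without Ly6g, Mmp8, Ngp, Camp, Ltf, Cxcr2 and Elane, and summed to 2.98 to 4.51 CPM in no tumor, 5.65 to 22.6 in KPC and 4.55 to 8.04 in KPC IL6KO. All 4 KPC libraries and all 4 KPC IL6KO libraries were above the no tumor libraries in the neutrophil sum. The lowest KPC IL6KO sum (4.55 CPM) was barely above the highest no tumor sum (4.51 CPM). In no tumor replicates 1, 2 and 3, 2, 1 and 3 of the 5 markers were at or below 3 counts. The part of these cells in the result was not tested.

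Cebpa moved the other way. It was at 31.1, 95.5 and 19.3 CPM in no tumor muscle and at 10.8, 15.1, 5.24 and 3.20 CPM in KPC muscle, so the groups did not overlap, but the no tumor mice spread over a wide range. The log2 FC was -2.51 ± 0.58, a 5.68-fold lower fitted level, and it was -1.56 without no tumor replicate 2, the mouse with the highest Cebpa.

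Cebpa is made by fat cells, and muscle holds some of them. In bulk tissue, fewer cells of a type and less RNA per cell cannot be told apart. The 5 markers that define adipocytes (Adipoq, Plin1, Cidec, Lep and Cfd) summed to 639, 1740 and 313 CPM in the no tumor muscles in the order of the Cebpa values above. They summed to 522, 1296, 104 and 9.77 CPM in KPC muscle and to 384, 64.7, 234 and 197 CPM in KPC IL6KO muscle, and all 5 were detected in each group. In all 3 muscle groups the order of the mice by Cebpa was their order by this sum. With the log2 of this sum as a covariate, an alternative chosen after seeing the data, the log2 FC of Cebpa in KPC was -1.69, that of Cebpb 1.30 and that of Cebpd 3.90. Adipoq, Plin1, Cidec and Lep also belong to the adipogenic cascade, in which Cebpa acts. This covariate is thus not independent of Cebpa, and the part of fat cell number was not tested. The summed level of all 8 markers on the list was at 856 to 3164 CPM in no tumor (median 1390), 1724 to 2996 in KPC (median 2517) and 524 to 935 in KPC IL6KO (median 814), so the median of KPC was above and that of KPC IL6KO below the median of no tumor. With this sum as the covariate, also chosen after seeing the data, the log2 FC of Cebpa in KPC was -3.23, so the covariates moved the value in opposite directions. The sum of 8 was led in KPC by Pnpla2, a lipase that muscle fibers also make, at 310 to 491 CPM in no tumor and 1291 to 2158 CPM in KPC.

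**Figure D2:**
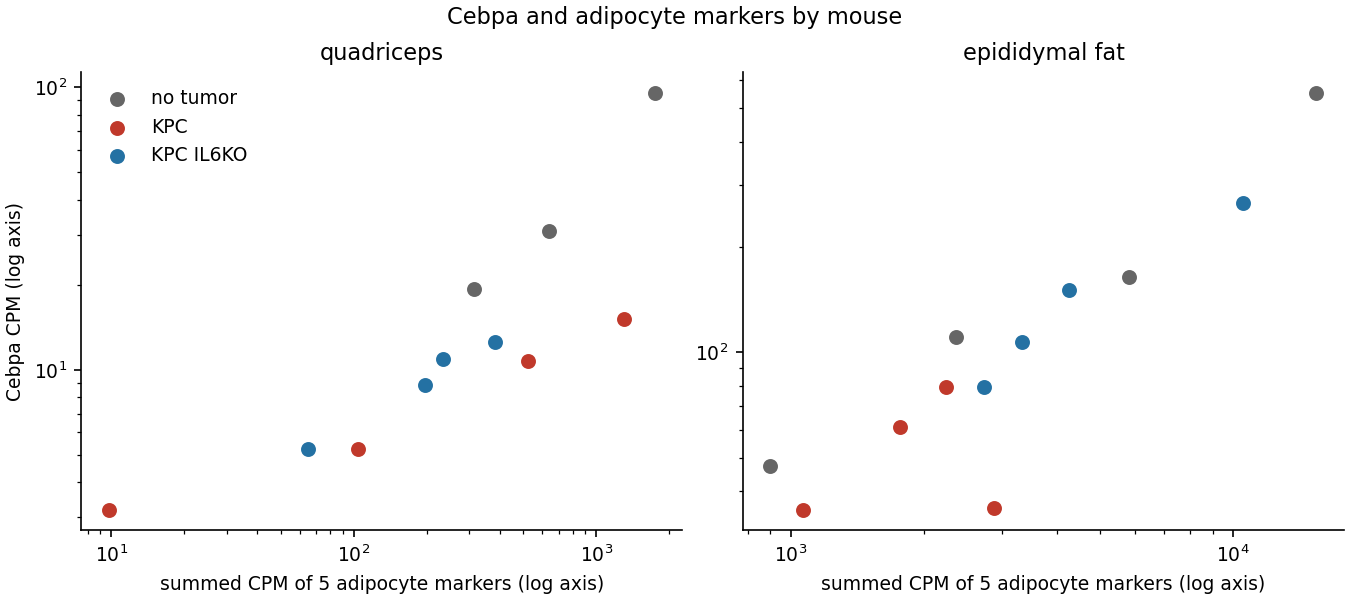
Cebpa in CPM against the summed CPM of 5 adipocyte markers, both on log axes, with 1 point per mouse and colors for the groups in quadriceps (left) and epididymal fat (right). Within every quadriceps group a mouse with more marker RNA had more Cebpa.

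Cebpg, which lacks an activation domain, differed least. It was at 37.9, 37.5 and 39.7 CPM in no tumor muscle and at 44.7, 53.8, 72.7 and 47.4 CPM in KPC muscle, and the groups did not overlap. The log2 FC was 0.51 ± 0.15, a 1.43-fold difference that lay under the 1.5-fold limit, and it was 0.34 without KPC replicate 3, the mouse with the highest value, and 0.60, past the limit, without KPC replicate 1. A gene was called when its Benjamini-Hochberg false discovery rate (FDR) in edgeR's quasi-likelihood test was at most 0.05 and its FC at least 1.5. Of the 4 members 2 were called up and 1 down in KPC, where 55.7% of all genes were called, 26.7% up and 29% down, and all 4 had groups that did not overlap, as 65.3% of all genes did. Since the members were chosen on this contrast, nothing is read from these counts.

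KPC IL6KO against no tumor muscle is the comparison that did not enter the choice of the genes, although it shares the no tumor libraries with it. The choice can thus have shifted these log2 FC values, and their p-values and FDRs are not independent of it. None of the 4 members was called, and 0% of the 12831 genes were called by the quasi-likelihood test, 887 genes having an unadjusted p under 0.05. Cebpa was at 12.5, 5.22, 10.9 and 8.87 CPM in KPC IL6KO muscle, below all 3 no tumor values. Its log2 FC was -2.38 ± 0.58 (95% interval -3.72 to -1.04, unadjusted p = 0.00161), of which the edgeR quasi-likelihood FDR was 0.289, and it ranked 44 from the lowest among all genes. The edgeR likelihood ratio test (FDR 0.0120) and DESeq2 (FDR 0.0471) called it, with 95 and 96 genes called in all. Its log2 FC was -1.43 without no tumor replicate 2 and, with adipocyte markers as a covariate, -1.46 for the 5 and -0.59 (edgeR FDR 1.00) for all 8. Cebpa values thus lay below the range of the same 3 no tumor mice with either tumor.

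Cebpb was at 16.9, 17.4, 26.5 and 22.9 CPM in KPC IL6KO muscle, also below all 3 no tumor values. The log2 FC was -0.63 ± 0.19 (95% interval -1.08 to -0.19) with an edgeR quasi-likelihood FDR of 0.424, and its sign was kept in every alternative run. Cebpd was at 15.7, 9.92, 34.0 and 43.8 CPM, which overlapped no tumor, with a log2 FC of -0.26 ± 0.46 (95% interval -1.31 to 0.80, edgeR FDR 1.00). Cebpg was at 36.9, 41.2, 36.99 and 42.6 CPM with a log2 FC of 0.04 ± 0.15 (95% interval -0.31 to 0.39, edgeR FDR 1.00). Of the members, 2 had groups that did not overlap, against 15.5% of all genes.

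KPC against KPC IL6KO muscle shares the KPC libraries with the contrast used to choose the genes and is given as a description. The log2 FC was 4.17 ± 0.48 for Cebpd, 2.07 ± 0.19 for Cebpb, 0.47 ± 0.14 for Cebpg and -0.13 ± 0.54 for Cebpa. Cebpd and Cebpb were called up and Cebpa and Cebpg were not called, where 53.6% of all genes were called, 26.4% up and 27.3% down. Since the KPC libraries entered the choice of the members, nothing is read from these calls. Groups did not overlap for Cebpb, Cebpd and Cebpg, as for 62% of all genes, whereas the KPC range of Cebpa (3.20 to 15.1 CPM) enclosed the KPC IL6KO range (5.22 to 12.5 CPM). The sign of the Cebpa value turned without KPC replicate 3 (0.05), KPC replicate 4 (0.15) or KPC IL6KO replicate 1 (0.04). With all 8 adipocyte markers as a covariate, chosen after seeing the data, Cebpa was at -2.64, and with the 5 it was at -0.23. The sum of 8 was led in KPC by Pnpla2, at 1291 to 2158 CPM against 293 to 429 in KPC IL6KO. As a description, Cebpb and Cebpd were high in KPC alone, and Cebpa values lay below those of no tumor in both tumor groups. The directions in KPC against no tumor were the ground for choosing the genes.

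The balance between members was read within each library, from levels per kilobase. The log2 ratio of Cebpd to Cebpa was -0.60, -2.79 and 0.69 in no tumor, 5.42, 4.17, 5.41 and 6.82 in KPC, and -0.18, 0.42, 1.14 and 1.80 in KPC IL6KO muscle. The log2 ratio of Cebpb to Cebpa was 0.79, -0.88 and 1.76 in no tumor, 3.88, 2.87, 5.09 and 5.70 in KPC, and 1.24, 2.55, 2.10 and 2.18 in KPC IL6KO. In each ratio the KPC mice stood above all others, and KPC IL6KO overlapped no tumor. Summed over the 4 genes, KPC muscle held 160 to 247 CPM per kb against 46.7 to 67.9 in no tumor and 23.5 to 37.9 in KPC IL6KO. Cebpd made up 50.5% to 70.8% of that sum in KPC, 7.73% to 23.2% in no tumor and 11.3% to 30.9% in KPC IL6KO. Cebpa made up 14.3% to 53.4% of it in no tumor, 8.42% to 17.8% in KPC IL6KO and 0.578% to 3.58% in KPC.

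**Figure D3:**
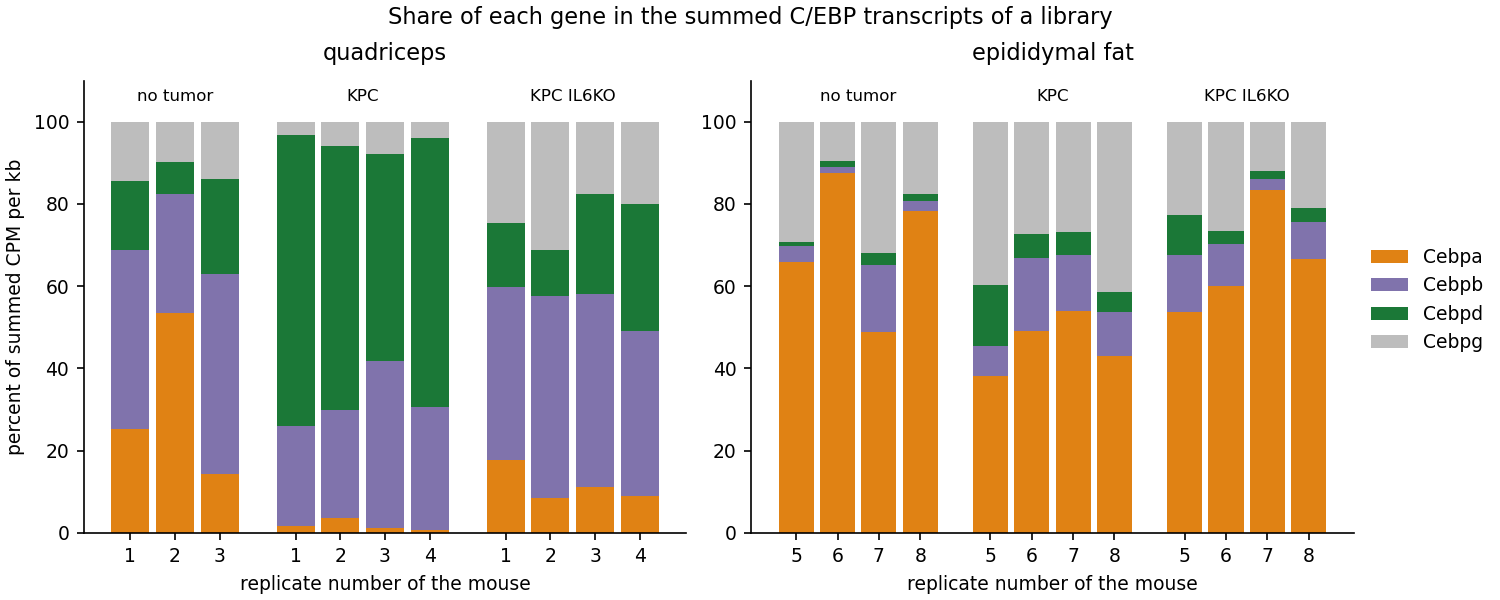
Share of each gene in the summed CPM per kb of the 4 C/EBP genes, in percent, with 1 bar per mouse in quadriceps (left) and epididymal fat (right). Cebpd takes over 50% of the sum in every KPC muscle, and Cebpa is the largest share in all fat libraries but 1 of KPC.

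The sequence before the start of Cebpb, which was high in KPC, and of Cebpa, which was low, is shown for the matches found in it. RefSeq promoters (GRCm38.p6) were found for 3 of the 4 members, not for Cebpd. Both runs are 250 bases on the plus strand and end at the base before the start, and capitals mark matches to TATAAA in Cebpa and to TGACG, the core of the cAMP response element, on either strand in Cebpb.
Cebpa, chr7:35119043-35119292: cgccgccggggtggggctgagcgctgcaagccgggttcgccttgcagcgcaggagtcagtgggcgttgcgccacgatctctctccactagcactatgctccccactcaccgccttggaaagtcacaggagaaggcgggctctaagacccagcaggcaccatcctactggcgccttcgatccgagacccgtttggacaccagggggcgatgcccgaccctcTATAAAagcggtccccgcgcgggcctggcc
Cebpb, chr2:167688665-167688914: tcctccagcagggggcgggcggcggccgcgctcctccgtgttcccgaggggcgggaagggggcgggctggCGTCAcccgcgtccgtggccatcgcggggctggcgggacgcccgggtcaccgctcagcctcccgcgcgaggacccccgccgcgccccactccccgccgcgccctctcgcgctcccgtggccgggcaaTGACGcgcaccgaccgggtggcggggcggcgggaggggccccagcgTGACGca
TATAAA began 30 bases before the start of Cebpa and also 21 bases after the start of Cebpb, beyond the run shown, and 13.6% of the 32851 promoters in the RefSeq table held it on either strand in the window from 250 bases before to 50 bases after the start. Cebpb held 3 TGACG matches, beginning 180, 53 and 7 bases before the start, and 20.8% of promoters held at least 1. The Cebpg promoter held 2 matches to CCAAT (in 37.4% of promoters), 89 and 28 bases before its start. The STAT motif TTCNNNGAA (8.30% of promoters), the full element TGACGTCA (1.79%), the C/EBP motif TTGCNNAA (10.8%) and the composite TGATGNAA of C/EBP and ATF factors (3.97%) had no match in these 3 windows. A match is a run of letters and not a measured binding site.

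Genes that act on Cebpb and Cebpd, or with them, were described by counts beside those of all genes, of which 55.7% were called in KPC against no tumor muscle, 26.7% up and 29% down. These lists were chosen with earlier results of the data known, so no enrichment is read from their counts or medians. Of the 12 receptors, kinases and factors upstream of them, 5 were called up and 2 down in KPC muscle, a share of 58.3% near that of all genes. Il6ra, the IL-6 receptor, was at 4.93 ± 0.643 CPM (SD, n = 3) in no tumor and 181 ± 59.97 (n = 4) in KPC, with a log2 FC of 5.21 ± 0.37. Mapk14, the p38 kinase, fell by 0.99 on the log2 scale, and Il6st, the shared receptor chain gp130, stood at 0.58 ± 0.19, under the limit. In KPC IL6KO none of these was called against no tumor by the quasi-likelihood test, the likelihood ratio test or DESeq2, and Socs3, the feedback inhibitor with the smallest p, was at 6.48 ± 4.21 against 3.91 ± 1.26 CPM. Of a further list of C/EBP names and relatives, Cebpz, listed for its name, was called up in KPC (0.99 ± 0.13). Ddit3, the inhibitory relative CHOP, was called down (-0.76 ± 0.27). The groups of Ddit3 overlapped, and only 1 gene of this list was called with a replicate block, with only the groups compared, or without no tumor replicate 1 or 2 or KPC replicate 1 or 2.

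Of 14 detected partners and regulators of C/EBP turnover, 6 were called up and 5 down in KPC muscle, 78.6% against 55.7% of all genes. Atf4, a dimer partner of C/EBPγ and C/EBPβ, was at 178 ± 7.56 CPM in no tumor, 786 ± 171 in KPC and 218 ± 29.7 in KPC IL6KO, a log2 FC of 2.14 ± 0.18 in KPC. Eif4ebp1, a brake on cap-dependent translation, had a log2 FC of 3.95 ± 0.28, and Dbp, a clock-controlled factor of a related family, of -5.51 ± 0.28. Of 24 detected targets shared by ATF4 and C/EBPγ, 14 were called up and 5 down (79.2% against 55.7% of all genes), with a median log2 FC of 0.85 against -0.03 for all genes. Vldlr, a lipoprotein receptor and the most abundant of them, was at 207 ± 22.6 CPM in no tumor and 893 ± 124 in KPC, and Phgdh, the first enzyme of serine synthesis, had a log2 FC of -2.62 ± 0.61. Of 15 genes tied to atrophy, 13 were called up and 2 down where 26.7% and 29% of all genes were, Trim63 (MuRF1, a ubiquitin ligase of myofibrils) with 5.04 ± 0.37 and Myod1 with -2.93 ± 0.36.

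The list of acute phase and cytokine targets of C/EBPβ and C/EBPδ went both ways in muscle. Of 22 genes 11 were detected, with 4 called up and 3 down in KPC against no tumor, 63.6% against 55.7% of all genes, and a median log2 FC of -0.17 against -0.03. In KPC against KPC IL6KO 5 were called up and 3 down, 72.7% against 53.6% of all genes, with a median of 1.93 against -0.01. Lcn2, an iron-binding acute phase protein, was at 0.712 ± 0.0778 CPM in no tumor and 54.4 ± 38.7 in KPC, a log2 FC of 6.27 ± 0.91, whereas Ptx3 had -3.44 ± 0.38. C3, the complement component and most abundant gene of the list, was at 130 ± 27.05 and 103 ± 73.5 CPM and was not called. Of the adipogenic cascade, in which Cebpa acts, 23 of 24 genes were detected, and 11 were called down and 1 up in KPC, 52.2% against 55.7% of all genes, with a median log2 FC of -1.21 against -0.03. Klf15, which glucocorticoids also induce in muscle, was the gene called up (2.30 ± 0.22), and Scd1, a fatty acid desaturase, was lowest (-3.63 ± 0.87). In KPC IL6KO 22 of these 23 genes had a negative log2 FC against no tumor. In the quasi-likelihood test 9 had an unadjusted p under 0.05, as 887 of all 12831 genes did, and none was called. The likelihood ratio test called 4 and DESeq2 3 of the 23, where these tests called 95 and 96 of all genes. Agpat2, an enzyme of triglyceride synthesis, had the smallest p there, at 9.89 ± 3.63 against 40.6 ± 29.4 CPM, with a log2 FC of -2.04 ± 0.41 (edgeR FDR 0.228). Against KPC IL6KO, KPC muscle had 6 of the 23 called down and 1 up, 30.4% against 53.6% of all genes, while 13 had a positive log2 FC and the median was 0.22.

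The genes whose pattern over the 11 muscle libraries was most like that of a member were found by the root mean square difference of mean-centered log2 CPM, over the 10520 genes whose log2 CPM averaged 1 or more. For Cebpd (SD over libraries 2.11) they were Fkbp5 at 0.44, Lrrc58 at 0.49 and Figf at 0.56. Fkbp5 encodes a chaperone partner of the glucocorticoid receptor. For Cebpb they were Pim3 at 0.26, Sdc4 at 0.26 and Lpin3 at 0.26, Pim3 being a kinase. For Cebpa they were Slc1a5, a glutamine transporter, at 0.27, Aoc3, an amine oxidase of fat cells and vessels, at 0.31, and Cd1d1 at 0.33. For Cebpg (SD 0.28) they were Dirc2 at 0.08, Mrpl17 at 0.08 and Crebl2 at 0.08. Among members, Cebpb ranked 337 in likeness to Cebpd, and Cebpa ranked 9753.

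In epididymal fat Cebpa was the leading member. Per kilobase it stood at 82.7 ± 85.9 CPM per kb (SD, n = 4) in no tumor, 20.1 ± 8.07 in KPC and 57.3 ± 31.2 in KPC IL6KO. Cebpg followed at 16.8 ± 4.96, 13.8 ± 2.17 and 15.8 ± 2.62, Cebpb at 3.44 ± 1.81, 5.65 ± 3.71 and 6.35 ± 2.13, and Cebpd was last at 1.68 ± 1.32, 3.20 ± 1.65 and 3.24 ± 1.52. Cebpa lay within its spread of Cebpg in no tumor and KPC, and Cebpb lay within its spread of Cebpd in no tumor and KPC and beyond it in KPC IL6KO. With RefSeq lengths Cebpb was at 6.29 and Cebpd at 5.37 CPM per kb in KPC IL6KO fat, which lay within their spread.

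**Figure D4:**
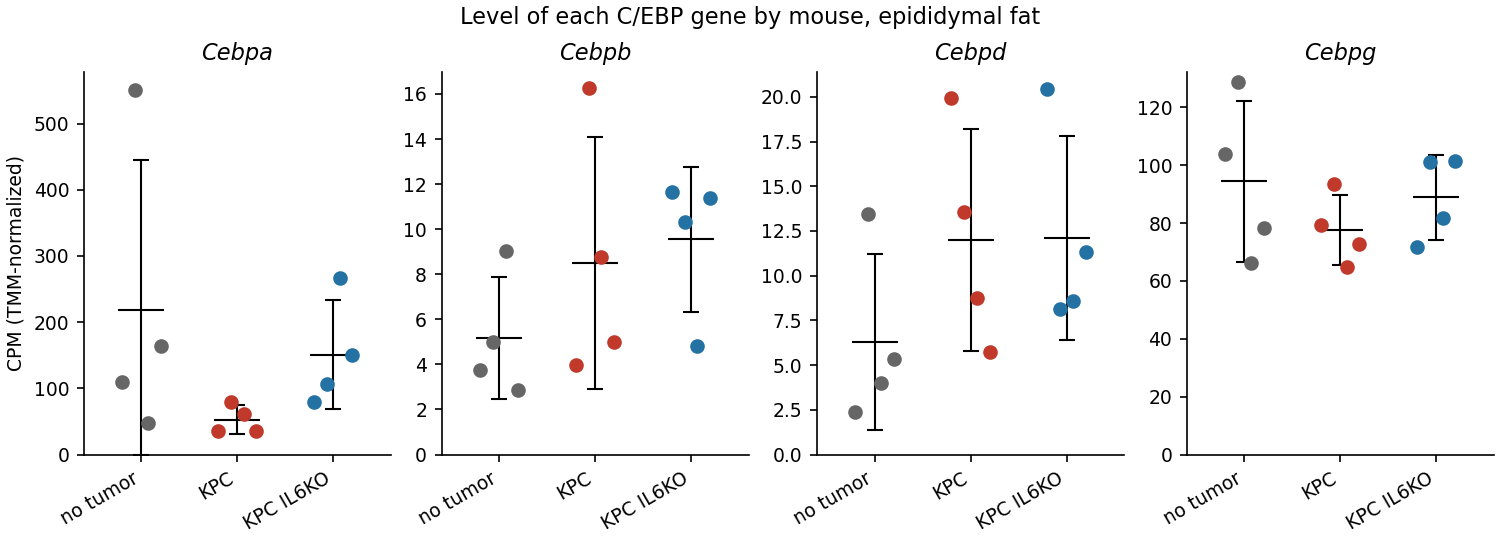
Level of each C/EBP gene in epididymal fat, in CPM on a linear axis that differs between panels, with 1 point per mouse, the group mean as a line and the SD as bars (n = 4 per group, bars cut at 0). The groups overlap except for Cebpa in KPC (at most 79.3 CPM) against KPC IL6KO (at least 79.4 CPM). For Cebpa, 1 no tumor mouse with 550 CPM stands above the rest.

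Cebpa was at 110, 550, 47.3 and 165 CPM in no tumor fat (replicates 5 to 8), at 35.8, 79.3, 61.0 and 35.5 CPM in KPC and at 79.4, 107, 266 and 151 CPM in KPC IL6KO. KPC overlapped no tumor, and it lay just below KPC IL6KO without overlap. The log2 FC against no tumor was -2.04 ± 0.68 in KPC (95% interval -3.57 to -0.51) with an edgeR quasi-likelihood FDR of 0.288 (0.0513 with DESeq2), and -0.53 ± 0.65 in KPC IL6KO (95% interval -2.01 to 0.95, edgeR FDR 0.772). Between the tumor groups it was -1.51 ± 0.67 with an edgeR FDR of 0.784. The KPC value was -1.02 without no tumor replicate 6, the mouse with 550 CPM, and the KPC IL6KO value turned to 0.49 without it.

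Markers of the cells of the pad and of the epididymis are given here beside these values. Among libraries above 1000 CPM of Gpx5, the log2 FC of Cebpa in KPC was -0.46, and with the epididymis markers as a covariate it was -1.64. The 5 defining adipocyte markers summed to 900 to 15455 CPM in no tumor, 1066 to 2882 in KPC and 2737 to 10568 in KPC IL6KO. With them as a covariate, an alternative chosen after seeing the data, the log2 FC of Cebpa was -0.69 in KPC. Between the tumor groups the log2 FC of Cebpa was -0.35 with this covariate. The order of the mice by Cebpa matched that by the sum of these 5 in no tumor and KPC IL6KO fat but not in KPC. Over 24 alternatives, which include all 8 adipocyte markers as a covariate, the log2 FC of Cebpa in KPC lay between -2.38 and -0.46. Macrophage markers, 9 of 10 detected, summed to 287 to 1143 CPM in no tumor, 1309 to 1994 in KPC and 488 to 3140 in KPC IL6KO. Neutrophil markers, 8 of 12 detected, summed to 10.9 to 774, 46.5 to 167 and 8.92 to 408 CPM. Their part in the values of the members was not tested.

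Cebpd was at 2.37, 13.5, 4.00 and 5.36 CPM in no tumor fat, at 19.9, 13.6, 8.73 and 5.76 in KPC and at 20.4, 8.16, 8.59 and 11.3 in KPC IL6KO. Its log2 FC was 0.93 ± 0.56 in KPC (95% interval -0.35 to 2.21, edgeR quasi-likelihood FDR 0.558) and 0.95 ± 0.56 in KPC IL6KO (95% interval -0.33 to 2.22, edgeR FDR 0.647). The mean was higher with either tumor, and neither difference passed the test. Among libraries above 1000 CPM of Gpx5, the log2 FC of Cebpd in KPC was 1.97 (edgeR FDR 0.120). Cebpb was at 3.77, 4.98, 9.04 and 2.88 CPM in no tumor, at 3.97, 16.3, 8.76 and 4.98 in KPC and at 11.7, 10.3, 4.81 and 11.4 in KPC IL6KO. For Cebpb the log2 FC was 0.72 ± 0.51 in KPC (95% interval -0.45 to 1.88, edgeR FDR 0.621) and 0.89 ± 0.52 in KPC IL6KO (95% interval -0.28 to 2.05, edgeR FDR 0.644). Between the tumor groups it was -0.02 ± 0.56 for Cebpd and -0.17 ± 0.51 for Cebpb, whereas muscle had shown 4.17 and 2.07. The difference between tissues was not tested.

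Cebpg ranged from 66.3 to 129 CPM in no tumor fat, from 64.7 to 93.5 in KPC and from 71.6 to 101 in KPC IL6KO. Its log2 FC was -0.28 ± 0.22 in KPC (edgeR FDR 0.647), -0.09 ± 0.22 in KPC IL6KO (edgeR FDR 0.894) and -0.20 ± 0.22 between the tumor groups (edgeR FDR 0.986). In fat 0 of the 4 members was called in any comparison, as were 0% of the 16962 genes in each by the quasi-likelihood test, with 2061, 1584 and 1062 genes at an unadjusted p under 0.05 in KPC, in KPC IL6KO and between tumor groups. The likelihood ratio test called 413, 209 and 66 genes and DESeq2 585, 286 and 125, and no member was among them. No member had groups that did not overlap in KPC (10.9% of all genes) or in KPC IL6KO (2.01%), and only Cebpa did between the tumor groups (4.33%).

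**Figure D5:**
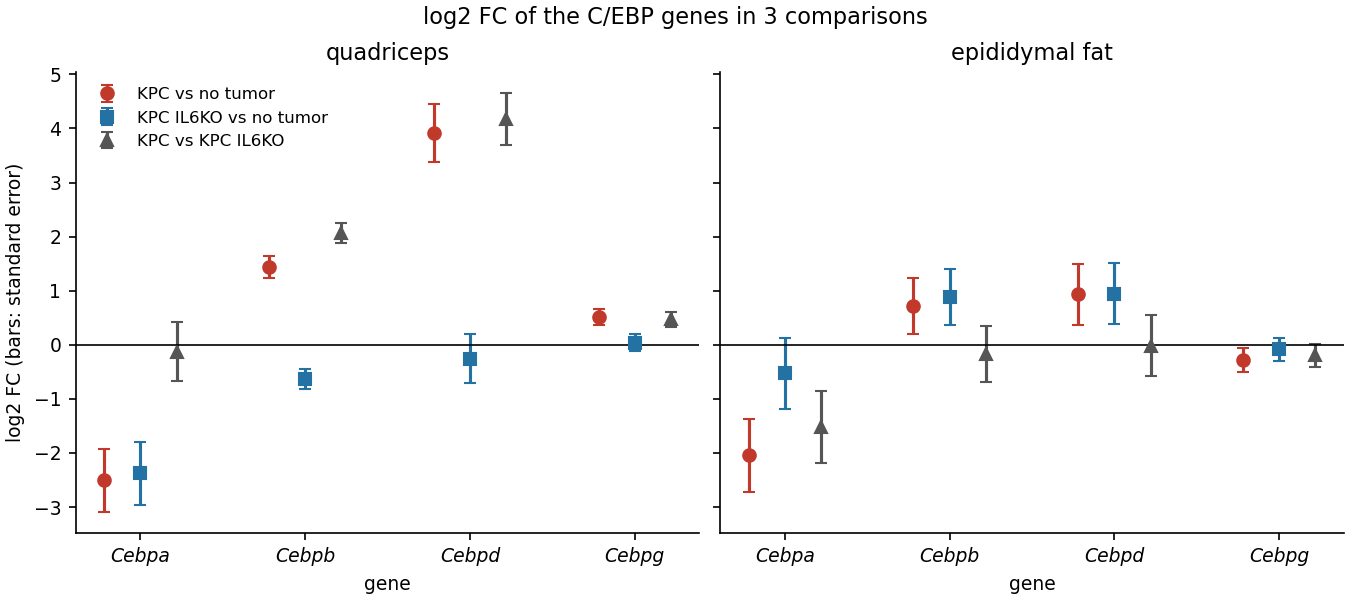
Fitted log2 FC of each C/EBP gene in 3 comparisons, with standard errors as bars, in quadriceps (left) and epididymal fat (right). Cebpb and Cebpd are far above 0 in muscle wherever KPC is the first group, and in fat Cebpb and Cebpd lie near 1 or below with bars of about 0.5.

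Upstream genes and targets were also read in fat, where none of the 7 lists had a called gene by the quasi-likelihood test. The lists were chosen with earlier results of these data known, so no enrichment is read from their counts or medians. Socs3, induced by IL-6 through STAT3, was at 3.39 ± 1.19 CPM in no tumor, 58.1 ± 22.7 in KPC and 47.4 ± 33.9 in KPC IL6KO, with no overlap between either tumor group and no tumor. The log2 FC of Socs3 was 4.10 ± 0.64 in KPC (edgeR quasi-likelihood FDR 0.0763) and 3.80 ± 0.63 in KPC IL6KO (edgeR FDR 0.325). Of 21 detected acute phase and cytokine targets of C/EBPβ and C/EBPδ, 18 had a positive log2 FC in KPC, with a median of 3.61 against -0.10 for all genes, and 17 had groups that did not overlap, as 10.9% of all genes did. In KPC IL6KO the median was 2.61 against -0.03, and 8 of the 21 did not overlap, as 2.01% of all genes did. The likelihood ratio test called 14 of the 21 in KPC and 11 in KPC IL6KO, where it called 413 and 209 of all 16962 genes. DESeq2 also called 14 and 11, where it called 585 and 286 of all genes. Itih4 was at 1.15 ± 0.733 CPM in no tumor, 37.5 ± 20.5 in KPC and 22.5 ± 2.44 in KPC IL6KO, and Hp, haptoglobin, at 654 ± 438, 3757 ± 2118 and 3991 ± 2339 CPM. The edgeR FDR of Itih4 was 0.0704 in KPC and 0.235 in KPC IL6KO.

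Of the 24 genes of the adipogenic cascade, 23 had a negative log2 FC in KPC fat, with a median of -1.32, and 18 did in KPC IL6KO, with a median of -0.33. In KPC the likelihood ratio test called 2 of them and DESeq2 3, where these tests called 413 and 585 of all 16962 genes. Slc2a4, the glucose transporter GLUT4, had the smallest p in KPC, at 17.9 ± 4.94 against 98.0 ± 107 CPM, with a log2 FC of -2.45 ± 0.73 (edgeR FDR 0.255). Slc2a4 was also among the 3 genes most like Cebpa over the 12 fat libraries, at a root mean square difference of 0.26, between Tshr at 0.25 and Aatk at 0.27, out of 13916 genes. For Cebpb they were Adgrb2 at 0.44, Nckap5l at 0.47 and Ier2 at 0.48, for Cebpd Hspb1 at 0.39, Ly9 at 0.39 and Crtap at 0.40, and for Cebpg Elmod2 at 0.10, Fbxo8 at 0.11 and Pcyt1a at 0.12. Partners, atrophy genes and ATF4 targets had median log2 FC values of -0.13, -0.37 and -0.10 in KPC fat, and Atf4 was at 162 ± 42.9, 177 ± 15.6 and 181 ± 32.5 CPM in no tumor, KPC and KPC IL6KO.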

How the data were processed

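RNA from quadriceps (11 mice) and epididymal fat (12 mice) was sequenced as paired reads, with extraction and sequencing of each tissue done apart. Per the labels and the methods, the authors aligned reads with STAR to mm10, counted uniquely mapped reads per gene with featureCounts 1.5.1 and deposited these counts without normalization. Genes with few counts are not in the tables. The authors left out a further muscle library of the no tumor group as an outlier, not analysed here. The library kits named in the labels and the methods differ.

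Libraries were grouped by their titles. Counts were scaled by TMM and tested with edgeR 4.0.16 (quasi-likelihood, R 4.3.3, limma 3.58.1) with the 3 groups of a tissue in 1 fit, after filterByExpr, which removed no gene, and with Benjamini-Hochberg adjustment over all genes. P-values measure the spread between these mice. The standard error is the size of the log2 FC divided by the square root of F. CPM per kb used exon lengths of GENCODE vM21. The members and gene lists were chosen with earlier results of these data known. Of each list, the named genes were the called genes with the highest and lowest log2 FC among genes whose log2 CPM averaged 1 or more, and the gene with the highest mean CPM, or the gene with the smallest p where none was called. Libraries of a group differed by more than sampling noise (chi-square per degree of freedom at least 28.9 in muscle and 84.7 in fat). Alternatives were the likelihood ratio test, DESeq2 1.42.0, a newer quasi-likelihood form, RLE factors, other filters, only the groups compared, a replicate block, leaving out each library, Gpx5 groups and, added after seeing the data, adipocyte covariates and RefSeq lengths. The steps were tested on simulated data. Figures used matplotlib 3.10.9 with Python 3.11.15.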

Additional observations from a re-analysis of the deposited data

How the results depend on the processing

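Of 536 log2 FC values of the members under alternatives, 533 kept their side of the threshold or moved by less than the spread between mice, and 18 had the other sign, none of them of a called value. Some could hardly move, since filterByExpr removed no gene and a library of the third group enters a contrast only through normalization and the shared spread. In fat and in KPC IL6KO against no tumor muscle, a value that stayed uncalled counted as kept, whatever its size. Cebpa in KPC against no tumor fat went from -2.04 to -0.46 in the libraries high in Gpx5 and counted as kept. So did Cebpa in KPC IL6KO against no tumor muscle, from -2.38 to -0.59 with 8 adipocyte markers. Cebpg in KPC against no tumor muscle moved by less than the spread but passed the limits without KPC replicate 1, where 4 members were called. Cebpa in KPC IL6KO against no tumor muscle passed the threshold with the likelihood ratio test (-2.38) and DESeq2 (-2.35), which called 1 member each and 95 and 96 genes, against 0 in the quasi-likelihood test, and leaving out libraries gave 0 to 2 genes, the highest without KPC IL6KO replicate 1. Cebpa in KPC against KPC IL6KO muscle was -2.64 with all 8 adipocyte markers as a covariate, and 3 members passed the limits in place of 2. This contrast shares the KPC libraries used to choose the members, so nothing is read from that count, and the cause was not tested. In fat the count of all genes called in KPC against no tumor was 413 with the likelihood ratio test, 585 with DESeq2, 16 with the newer quasi-likelihood form, 174 with only the groups compared, 393 in the libraries high in Gpx5, 417 with the epididymis covariate, 64 with 8 and 6 with 5 adipocyte markers as a covariate, and 0 to 15 without single libraries, the highest without KPC IL6KO replicate 6. In KPC IL6KO against no tumor it was 209, 286, 1 with the epididymis covariate, 1 with either adipocyte covariate and 0 to 13 without single libraries, and between the tumor groups 66, 125 and 1 with the newer form. Among list counts, 45 of 938 moved by over 1.5 times, 32 of them in fat. Replicate numbers are labels of different mice. Deviations of same-numbered muscle mice correlated at -0.15 to 0.26, with 2 of 10 pairs over 0.1, and of fat mice at -0.54 to 0.65, with 7 of 12. With a replicate block Cebpd in KPC against no tumor muscle was 3.84 and Cebpa -2.26, with 7043 genes called, and no call of a member changed. With 3 or 4 mice a group, the spread of Cebpa was wide. Its standard error against no tumor muscle was 0.58 with either tumor, so whether it was called there also depended on the adjustment over all genes.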
